A study of Mus musculus with 28 samples.

Results

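The basal H3K27me3 landscape of mouse microglia is the set of 26325 genomic regions in which the study's authors called the mark over input DNA. It was taken whole, from the 4 libraries behind the call: basal H3K27me3 replicates 1 and 2 and the inputs of the same numbers. They are 4 of the 28 libraries in the series. Trimethylation of lysine 27 on histone H3 is written by Polycomb repressive complex 2, through its catalytic subunits Ezh2 and Ezh1, and is read by the chromobox (Cbx) proteins of Polycomb repressive complex 1. The mark is found over silent genes and is best known for keeping developmental regulators of other lineages off, often across wide domains. Microglia, the macrophages of the brain, keep their own identity through Spi1, Irf8 and Sall1 and are lost without the growth factor receptor Csf1r.

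All libraries used here came from adult male wild-type C57BL/6 mice on a regular diet, with no treatment. The cells were sorted as CD44-low, CD45-low and CD11b-low microglia. Brains of 2 to 6 mice were pooled for a sort, and the labels do not say that replicates came from separate animals. Basal replicates 3, 4 and 5 have the same labelled genotype, diet and sex, and they took no part in calling the regions. They serve below as a separate measure of the mark. Libraries of sorted subsets from mice fed the demyelinating agent cuprizone were not used. A lower level of the mark in a region and a mark carried by fewer of the sorted cells cannot be told apart in these libraries.

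Start-site windows show which promoters lay inside a region and which did not. Each window below runs from 250 bases before to 50 bases after a start site in RefSeq (GRCm38.p6, the build of the files' mm10), printed 5′ to 3′ on the gene's strand. Capitals mark each CG, the dinucleotide that clusters in promoters bound by Polycomb. A CG reads the same on both strands, its matches do not overlap, and 94.6% of all 32851 windows hold at least 1. The first 3 windows lay inside regions. They belong to Dlx2, a homeobox regulator of interneurons, to Gata3, a regulator of T cells, and to Slc17a7, the vesicular glutamate transporter of excitatory neurons. The last pair lay outside: P2ry12, the purinergic receptor that marks homeostatic microglia, and Gapdh, a glycolytic enzyme that most cells use.
Dlx2, chr2:71546705-71547004, minus strand: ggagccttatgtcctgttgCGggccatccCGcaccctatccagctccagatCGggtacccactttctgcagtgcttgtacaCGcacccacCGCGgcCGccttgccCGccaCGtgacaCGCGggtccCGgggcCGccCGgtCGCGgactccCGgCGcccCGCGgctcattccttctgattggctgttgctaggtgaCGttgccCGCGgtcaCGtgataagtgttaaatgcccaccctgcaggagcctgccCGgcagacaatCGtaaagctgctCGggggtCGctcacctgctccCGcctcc
Gata3, chr2:9878551-9878850, minus strand: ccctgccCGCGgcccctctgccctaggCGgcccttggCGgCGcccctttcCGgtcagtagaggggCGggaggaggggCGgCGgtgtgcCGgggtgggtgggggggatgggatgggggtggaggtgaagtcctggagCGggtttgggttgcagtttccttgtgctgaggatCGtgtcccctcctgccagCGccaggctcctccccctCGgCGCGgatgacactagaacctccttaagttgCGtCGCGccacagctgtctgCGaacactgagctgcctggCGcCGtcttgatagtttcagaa
Slc17a7, chr7:45163671-45163970, plus strand: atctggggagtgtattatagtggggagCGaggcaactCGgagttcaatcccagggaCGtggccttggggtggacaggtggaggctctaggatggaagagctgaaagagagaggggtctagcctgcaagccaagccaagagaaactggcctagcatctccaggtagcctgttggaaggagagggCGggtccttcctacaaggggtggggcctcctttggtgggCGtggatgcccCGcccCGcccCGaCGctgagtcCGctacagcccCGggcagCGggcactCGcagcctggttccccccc
P2ry12, chr3:59262936-59263235, minus strand: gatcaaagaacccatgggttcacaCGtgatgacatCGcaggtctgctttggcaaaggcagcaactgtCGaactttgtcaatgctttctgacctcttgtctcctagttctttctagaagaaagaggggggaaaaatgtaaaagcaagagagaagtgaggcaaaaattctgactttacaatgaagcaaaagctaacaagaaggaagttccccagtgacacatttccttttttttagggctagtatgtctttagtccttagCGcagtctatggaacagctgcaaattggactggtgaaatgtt
Gapdh, chr6:125165724-125166023, minus strand: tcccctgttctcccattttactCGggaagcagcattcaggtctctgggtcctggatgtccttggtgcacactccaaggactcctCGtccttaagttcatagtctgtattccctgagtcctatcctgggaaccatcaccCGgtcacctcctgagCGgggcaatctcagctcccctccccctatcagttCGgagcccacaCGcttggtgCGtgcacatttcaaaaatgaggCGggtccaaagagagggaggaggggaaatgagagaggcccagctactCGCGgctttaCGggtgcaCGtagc
The windows held 29 CG for Dlx2, 22 for Gata3, 13 for Slc17a7, 4 for P2ry12 and 12 for Gapdh, against a median of 7 over all windows. Of all windows, 12.9% held 29 or more, 23.1% held 22 or more, and 37.9% held 13 or more. A count of 12 or more was found in 39.6% of windows and a count of 4 or more in 68.6%. Each of the 3 windows inside regions held more CG than both windows outside, although Slc17a7, with 13, was next to Gapdh, with 12. These 5 windows were picked as examples, and their order is not that of start sites in general. Over all protein-coding start sites, the median was 12 CG inside regions and 13 outside. The shares by CG count over protein-coding start sites are given below.

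MicroRNA genes were a second group with short sequences inside strong regions. The mature sequences below, from RefSeq (GRCm38.p6), carry the seed, bases 2 to 8, in capitals, and are grouped by seed.
mmu-miR-10a-5p: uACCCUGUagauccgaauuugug
mmu-miR-10b-5p: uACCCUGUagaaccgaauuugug
mmu-miR-196a-5p: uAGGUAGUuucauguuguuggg
mmu-miR-196b-5p: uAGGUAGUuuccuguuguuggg
mmu-miR-132-3p: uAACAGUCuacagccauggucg
mmu-miR-212-3p: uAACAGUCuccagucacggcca
mmu-miR-182-5p: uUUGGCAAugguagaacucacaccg
mmu-miR-96-5p: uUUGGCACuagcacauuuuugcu
mmu-miR-183-5p: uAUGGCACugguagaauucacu
mmu-miR-9-5p: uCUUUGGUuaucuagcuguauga
The first 3 pairs (miR-10a and miR-10b, miR-196a and miR-196b, miR-132 and miR-212) share 1 seed within each pair. The seeds of miR-182, miR-96 and miR-183 differ from each other, although the 3 genes lie in 1 region.

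The measure of the mark was enrichment, the mean of the 2 H3K27me3 values minus the mean of the 2 input values in a region, in log2 units. The deposited values are log2 levels in which low values are drawn together, as in variance-stabilised data, so a difference understates the fold in regions with few reads. Replicates 1 and 2 held 51756561 and 51214148 tags in H3K27me3, against 38528016 and 4788629 in input. The shallow second input stood apart. Across regions the H3K27me3 replicates differed with an SD of 0.16, against 0.39 for the inputs. The first input was lower than the second, by a median of -0.13 on the log2 scale. Enrichment is therefore given for each numbered pair beside the mean. The ranking of regions by enrichment was only loosely shared by the pairs, with a Spearman rho of 0.24 across regions, as a description.

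Levels had medians of 7.78 and 7.75 in the H3K27me3 libraries, against 6.57 and 6.71 in the inputs. In each of the 26325 regions both H3K27me3 values stood above both input values. Median enrichment was 1.11, with quartiles of 0.95 and 1.34, a lowest value of 0.71 and a highest of 3.09. The replicate 1 pair gave a median of 1.19 and the replicate 2 pair 1.07, a mean of 1.13 ± 0.080 (SD, n = 2 pairs). In limma, 26325 of 26325 regions (100.0%) were higher in H3K27me3 than in input at an adjusted p of 0.05. The authors chose the regions on this same contrast, so this count describes the list and nothing is read from it. Few regions were far above the rest, since 675 (2.56%) reached an enrichment of 2 and 58 reached 2.5. The only region to reach 3 lay over Dlx1 and Dlx2.

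The marked sequence was split very unevenly between regions. They had a median length of 6386 bp with quartiles of 3863 and 11789 bp, and ran from 1250 bp, the size set for calling, to 410326 bp. The longest 4319 regions, 16.4% of all, made up 50% of the marked length, and the region at which that share was reached measured 15.8 kb. Regions covered 10.5% of the 2631 Mb that lie before the last annotated gene of the autosomes and the X chromosome. Neighbouring regions were separated by a median of 11.8 kb, and 46.4% of the gaps were under 10 kb. The 100 regions of 100 kb or more therefore depend on how gaps are treated: joining regions over gaps of up to 5 kb gave 17997 domains with 347 of that length, and over gaps of up to 10 kb gave 14109 domains with 579. The longest domain measured 410 kb as deposited, 617 kb after joining at 5 kb and 684 kb at 10 kb.

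Enrichment climbed with length in both pairs. Median enrichment was 0.94 in the 1318 regions under 2 kb, 0.99 from 2 to 5 kb, 1.10 from 5 to 10 kb, 1.26 from 10 to 20 kb, 1.45 from 20 to 50 kb, 1.66 from 50 to 100 kb and 1.89 at 100 kb or more. The ends of that range were 0.99 and 2.05 in the replicate 1 pair and 0.91 and 1.75 in the replicate 2 pair. Across regions the Spearman rho of length with enrichment was 0.53 as a description, and 0.34 with the shallow input alone, whose long regions stood higher than those of the first input. At 100 kb or more, median input levels were 10.84 and 11.15, against 4.23 and 4.32 under 2 kb. Since longer regions hold more reads, the compression of low values moves with length too, and its part in this trend was not tested.

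Basal replicates 3 to 5 gave a measure without that compression, the reads in a region per 1000000 reads in all regions, per kb (density). Median density was 2.56 ± 0.14 under 2 kb and 4.59 ± 0.13 at 100 kb or more (SD, n = 3 libraries), and it was higher in each longer class in between. No input counts were used for these 3 libraries, so their density is not corrected for input.

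**Figure D1:**
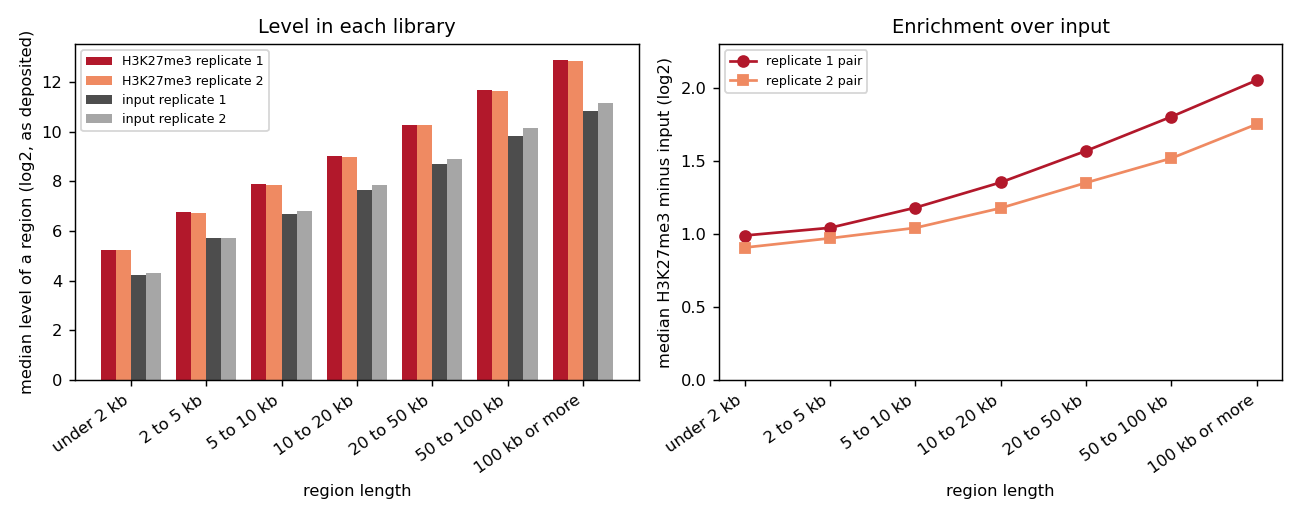
Left, median deposited log2 level of a region in the 2 H3K27me3 and the 2 input libraries, by region length. Right, median H3K27me3 minus input in log2 units for each numbered pair, by region length. Both pairs climb with length, to 2.05 in the replicate 1 pair and 1.75 in the replicate 2 pair at 100 kb or more.

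Most regions lay away from start sites, and those that held one were longer and stronger. By the distance from a region's centre to the nearest annotated start, 5257 regions (20.0%) had that start inside them and 21068 did not. Median length was 12.2 kb with a start inside, against 5.71 kb without. Median enrichment was 1.47 against 1.06, with 1.60 against 1.13 in the replicate 1 pair and 1.36 against 1.02 in the replicate 2 pair. A start lay inside 5.01% of regions under 2 kb and 87.0% of those at 100 kb or more. Within each of the 7 length classes, regions with a start inside had the higher median enrichment in both pairs.

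The libraries outside the calling showed the same order. Median density was 3.63, 3.63 and 3.65 in regions with a start inside, against 2.96, 3.14 and 3.03 in those without, in replicates 3, 4 and 5. The difference was 0.60 ± 0.094 (SD, n = 3 libraries) and was positive in 3 of 3. A two-sided exact permutation test of the 3 paired differences gave p = 0.25, the smallest it can give with 3 libraries. Within length classes, density was higher with a start inside in 7 of 7 classes in replicates 4 and 5 and in 6 of 7 in replicate 3. The exception was the class under 2 kb in replicate 3, at 2.38 against 2.40.

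**Figure D2:**
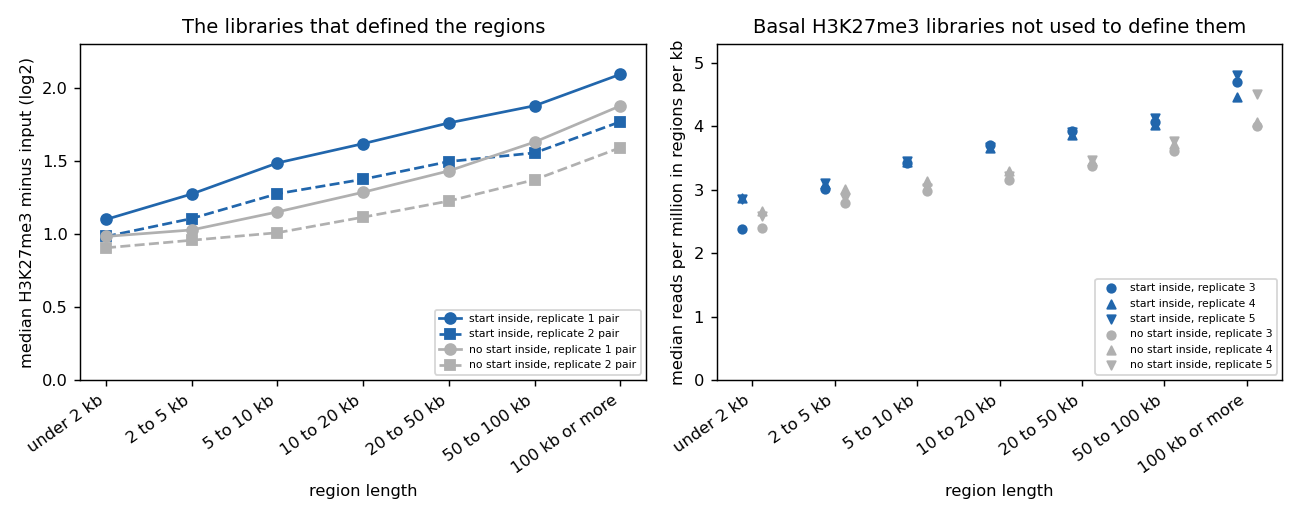
Left, median H3K27me3 minus input (log2) by region length for regions with and without a start site inside, for each numbered pair. Right, median density (reads per 1000000 reads in regions, per kb) in basal H3K27me3 replicates 3 to 5, which did not define the regions. Within each pair or replicate, the point with a start inside lies above the one without in each class of length, apart from replicate 3 in the shortest class.

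Nearest genes were spread widely. The median distance from a region's centre to the nearest start was 24.4 kb, and the farthest was 815 kb. Regions within 1 kb of a start numbered 1742, with a median enrichment of 1.38. Those at 1 to 5 kb numbered 3311 and had a median of 1.31. Medians were 1.13 at 5 to 20 kb, 1.06 at 20 to 100 kb, 1.02 at 100 to 500 kb and 1.01 in the 88 regions beyond 500 kb. The 26288 regions with a nearest gene shared 10626 genes. Of these genes, 5095 (47.9%) were nearest to 1 region and 254 to 10 or more. The nearest gene was protein-coding for 21738 regions and a non-coding RNA for 4293.

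Genes with many separate regions lay in wide intervals with scattered marks of ordinary strength. Pard3, a cell polarity protein, was nearest to 29 regions, Psmd7, a proteasome subunit, to 28, and Phactr1, an actin and phosphatase regulator, to 26. Tox3, an HMG-box factor, was also nearest to 26, and the non-coding RNA Lncbate1 and the nuclear receptor Nr5a2 to 23 each. Their median enrichments were 1.11, 0.99, 1.20, 1.11, 1.08 and 0.92. The closest Psmd7 region was 14.0 kb from the start and the farthest 485 kb, so being the nearest gene did not mean that the gene itself was marked.

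The centres of 15486 regions were intergenic and of 8643 intronic. Centres in 5′ untranslated exons and promoters were rarer and stronger, with median enrichments of 1.41 in 151 regions and 1.38 in 899, against 1.08 in intergenic and 1.12 in intronic regions. The 158 regions centred on an annotated CpG island had a median of 1.52, although their median length was only 5.19 kb. Centres on LTR and LINE elements gave medians of 1.07 in 2930 regions and 1.05 in 2495. In replicates 3 to 5, CpG island regions had a density of 3.52 ± 0.094, against 3.17 ± 0.093 for LTR and 3.16 ± 0.097 for LINE regions (SD, n = 3 libraries).

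The X chromosome was sparsely covered. It carried 287 regions over 1.39 Mb, 0.81% of its span, while coverage of the 19 autosomes ran from 7.19 to 17.6%, highest on chromosome 11. Regions occurred at 1.68 per Mb on the X chromosome and at 8.42 to 14.6 per Mb on the autosomes. Median level per kb, on the log2 scale, was 4.73 and 4.69 in the H3K27me3 libraries on the X chromosome, against 5.07 and 5.04 on autosomes. The inputs were lower there by more, at 3.28 and 3.50 on the X chromosome, against 3.87 and 4.00 on autosomes. Male cells carry a single X chromosome, and the part of its lower read density in the number of regions called was not tested. In replicates 3, 4 and 5, density was also lower, at 2.44, 2.37 and 2.33, against 3.07, 3.22 and 3.12. Of protein-coding start sites, 104 of 960 on the X chromosome (10.8%) lay inside a region, against 23.0% on autosomes.

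Start sites were then placed in the regions directly, with the RefSeq promoter table. Of 17492 protein-coding genes with a start in it, 4020 (23.0%) had one inside a region. Of 9533 long non-coding RNA genes, 2424 (25.4%) did. Over whole genes, 6986 of 21900 protein-coding genes (31.9%) were touched by a region and 1562 lay entirely inside one or more. These shares are the background for the gene lists below.

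The CG content of a start site was related to the share inside a region in a hump and not in a line. Among protein-coding start sites the share was 15.7% with 0 to 3 CG in the 300 bases, 31.0% with 4 to 10, 25.5% with 11 to 20, 19.4% with 21 to 30 and 21.0% with over 30. Enrichment of the regions that held them had another order, at 1.32, 1.45, 1.59, 1.69 and 1.59. Regions holding these starts had mean densities in replicates 3 to 5 of 3.47 ± 0.049, 3.64 ± 0.022, 3.90 ± 0.046, 4.02 ± 0.069 and 3.73 ± 0.045 (SD, n = 3 libraries). Marked start sites with 21 to 30 CG thus lay in the regions of highest median enrichment in replicates 1 and 2 and of highest median density in replicates 3 to 5, while windows with 4 to 10 were the most often marked.

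The extent of regions around start sites depended on which starts were counted. In the 4202 regions that held the start of a single gene, a median of 4.10 kb lay upstream and 5.03 kb downstream, and 59.1% had the longer part downstream. Around all protein-coding start sites, marked or not, coverage was higher on the upstream side. It was 18.8% at 20 kb and 21.4% at 5 kb upstream, 22.5% at the start, and 16.4% at 5 kb and 15.0% at 20 kb downstream. This coverage includes regions near a start that do not hold it. Potassium channel genes had a peak at the start, with 68.5% covered there, against 30.4% at 5 kb upstream and 41.3% at 5 kb downstream. Homeobox genes had a plateau, at 91.7% at the start and still 58.3% and 63.1% at 20 kb upstream and downstream. Ribosomal protein genes showed the reverse, with 0 of 70 starts covered, 1.43% at 5 kb downstream and 21.4% at 20 kb upstream.

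**Figure D3:**
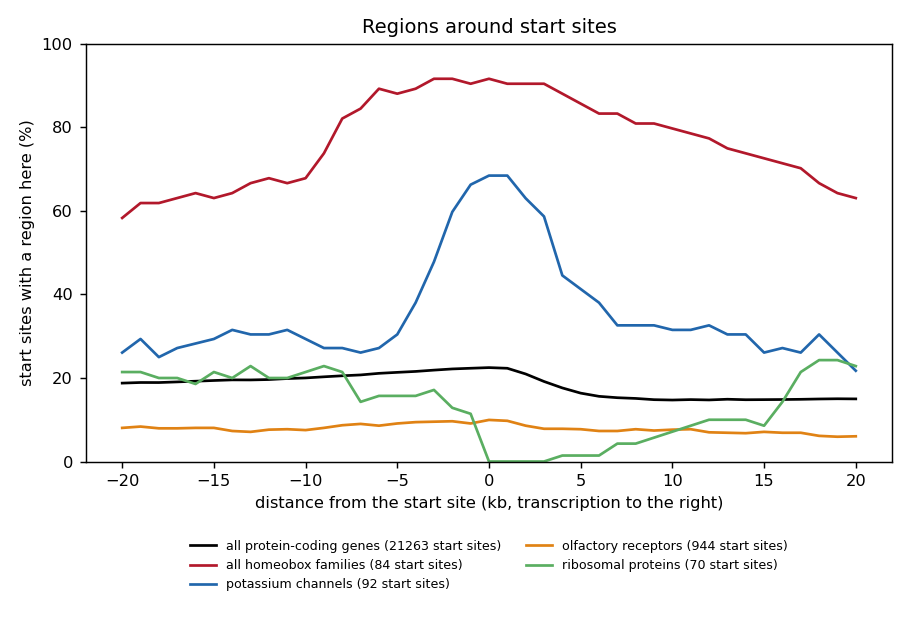
Share of start sites (%) with a region at each distance from the start, in steps of 1 kb and with transcription to the right, for all protein-coding genes and 4 groups of families. Homeobox genes form a plateau, potassium channel genes a peak of 68.5% at the start, and ribosomal protein genes a gap with 0 covered starts.

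The Hox clusters, which set position along the body axis in the embryo, included the longest region of all, Hoxc, and had enrichments far above the median of 1.11. By length, Hoxb ranked 3, Hoxd 7 and Hoxa 24 among all regions. Each of the 4 clusters lay in 1 region, and all 39 Hox genes were covered from end to end. The Hoxa region (chr6:52144553-52300629, 156 kb, 11 genes) had levels of 14.25 and 14.15 in H3K27me3, against 11.45 and 11.35 in input, an enrichment of 2.80 ± 0.13 (SE from limma, n = 2 per group, as for each ± that follows an enrichment). Hoxb (chr11:96119340-96391099, 272 kb, 10 genes) had 14.49 and 14.45, against 11.95 and 11.99, an enrichment of 2.50 ± 0.12. Its nearest named gene, Gm53, is outside the naming rule.

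Hoxd (chr2:74627265-74825486, 198 kb, 9 genes) had 13.91 and 13.89, against 11.52 and 11.55, an enrichment of 2.36 ± 0.12. Hoxc (chr15:102741093-103151419, 410 kb, 9 genes and the non-coding RNA Hotair) had 14.90 and 14.87, against 12.54 and 12.71, an enrichment of 2.26 ± 0.13. The replicates of a group were close to each other in all 4 clusters, with the widest gap in the Hoxc input. Density in replicates 3, 4 and 5 was 10.0, 8.28 and 8.26 at Hoxa, 6.78, 5.82 and 6.14 at Hoxb, 6.64, 5.81 and 5.92 at Hoxd, and 6.12, 5.51 and 5.62 at Hoxc. Hoxa was the densest of the 4 and Hoxc the least dense in each of the 3 libraries.

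The other regions among the longest were a mixed group in strength. The domain at Pax2, a paired-box regulator of kidney and midbrain, measured 217 kb with an enrichment of 2.05 ± 0.13. The domain at Runx3, a regulator of T cells and sensory neurons, measured 173 kb with 2.03 ± 0.17. The Sstr5 domain, with the somatostatin receptor, Sox8 and the calcium channel Cacna1h, measured 180 kb with 1.95 ± 0.16. The region named for Grap2, an adaptor of T cell receptor signalling, reached 180 kb and 2.32 ± 0.14, and that named for Bcar1, which holds the pancreatic protease gene Ctrb1, reached 183 kb and 2.52 ± 0.13. Weaker were the domains at Ccdc33 (274 kb, 1.83 ± 0.17), which also holds the steroid enzyme gene Cyp11a1, at Sez6l (253 kb, 1.64 ± 0.16) and at Crhr1 (186 kb, 1.51 ± 0.17), the stress hormone receptor, beside Mapt, the tau gene. In the Crhr1 domain the pairs gave 1.73 and 1.30. The 3 later libraries had mean densities of 7.24 ± 0.57 at Bcar1 and 6.66 ± 0.42 at Grap2, against 3.55 ± 0.21 at Crhr1 (SD, n = 3 libraries).

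Several of the strongest regions of 5 kb or more held homeobox and zinc-finger regulators of the embryonic nervous system. The region over Dlx1 and Dlx2 (chr2:71522655-71554335, 31.7 kb), whose Dlx2 promoter is printed above, had levels of 12.15 and 12.07 in H3K27me3, against 9.07 and 8.97 in input. Its enrichment was 3.09 ± 0.14, with pair values of 3.08 and 3.10. Sp9, a zinc-finger factor of interneurons, had 11.71 and 11.73, against 8.82 and 8.78, an enrichment of 2.92 ± 0.14. Zic2 and Zic5, which pattern the forebrain and neural crest, shared a region at 11.96 and 11.86, against 9.17 and 9.07, an enrichment of 2.79 ± 0.14.

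Other regions among the strongest, some of them above Zic2, held genes of several kinds. A region of 14.8 kb near Terc, the telomerase RNA, had 2.92 ± 0.24, but its centre was 10.1 kb from Terc and it touched no protein-coding gene. Nxph4, a neurexin ligand, had 2.86 ± 0.19 and Nr4a2, a nuclear receptor of dopamine neurons, 2.80 ± 0.17. Ltbp4, which binds latent TGF-beta, had 2.78 ± 0.17, and Nkpd1, an NTPase of the KAP family, 2.78 ± 0.18. The pairs differed for some of them, with 3.18 and 2.55 for Nxph4 and 2.55 and 3.28 for the Terc region. Mean density over the later replicates was 9.63 ± 1.8 at Dlx1 and Dlx2, 9.05 ± 1.3 at Nr4a2, 8.90 ± 1.0 at Nxph4 and 6.50 ± 0.53 at Ltbp4, all above the median of 3.06 to 3.22 over all regions in the 3 libraries.

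Short regions could also be strong. Of those under 5 kb, the highest enrichment lay in 2.84 kb near Tnfrsf18, a receptor of regulatory T cells, at 2.53 ± 0.17, with 8.39 and 8.43 in H3K27me3, against 5.85 and 5.91 in input. That region was within Ttll10, a tubulin-modifying enzyme gene, 9.66 kb from the Tnfrsf18 start. Cpne9, a calcium-binding copine, had 2.52 ± 0.17, and Akap12, a scaffold of protein kinase A, 2.33 ± 0.24. Cntfr, the ciliary neurotrophic factor receptor, had 2.31 ± 0.18, and a region of 1.57 kb near Mir6546 had 2.41 ± 0.18. Density was high at the Tnfrsf18 region (7.26 ± 0.92) and lower at Cntfr (3.64 ± 0.55).

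Homeobox families were marked almost without gap. Of the 70 genes of 8 such families with a start in the promoter table, 66 (94.3%) had it inside a region, against 23.0% of all protein-coding genes. The share was 22 of 22 Hox, 11 of 11 Nkx, 9 of 9 Lhx and Isl, 7 of 7 Pax and 3 of 3 Irx genes. It was 2 of 2 for Dlx genes, 7 of 11 for Pou genes and 5 of 5 for the family of Six3, Six4 and Six5. The 47 regions that held these starts had a median enrichment of 2.11, with pair medians of 2.14 and 2.06, against 1.11 over all regions, and a median length of 34.6 kb. The highest were Dlx1 and Dlx2 (3.09) and the Hoxa genes (2.80). Within their own families the first 3 were Lhx3 (2.50), Isl2 (2.42) and Lhx9 (2.37), which specify motor and other neurons, Nkx2-4 (2.46), Nkx2-3 (2.35) and Nkx3-2 (2.32), and Six5 (2.50), Six3 (2.36) and Six4 (1.80). Among Pax genes Pax6, the eye and forebrain regulator, had 2.28, followed by Pax2 and by Pax1 with 1.99, and Pou4f1, Pou3f3 and Pou5f1 had 2.46, 2.23 and 2.09. Irx3, Irx2 and Irx4 had 2.01, 1.91 and 1.44.

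Other transcription factor families were marked in part. Starts inside regions numbered 5 of 5 for Zic and Gli, 19 of 28 for Fox, 9 of 13 for Sox, 6 of 9 for Tbx and 3 of 4 for Gata genes. Foxd2, Foxd3 and Foxf2 led the forkhead genes with enrichments of 2.67, 2.40 and 2.35. Sox2, the factor of neural stem cells, had 2.50, against 1.98 for Sox6 and 1.95 for Sox8, and Tbx21, Tbx1 and Tbx4 had 2.38, 2.14 and 2.11. After the Zic2 and Zic5 region, Zic1 and Zic4 shared a region at 2.11, and Gli2 had 2.11. The share was 7 of 20 for Klf and Sp genes, led by Sp9, Sp8 (2.09) and Klf8 (1.96). Of the interferon and cytokine signalling factors, 1 of 8 Irf genes (Irf4, 1.60 ± 0.30, pair values 1.35 and 1.85) and 1 of 6 Stat genes (Stat4, 0.86 ± 0.17) had a marked start. The shares of Irf and Stat genes cannot be told from the 23.0% of all protein-coding genes. Nor can those of Klf and Sp genes or of Gata genes. Their exact (Clopper-Pearson) 95% intervals, 15.4 to 59.2% and 19.4 to 99.4%, include 23.0%. Only 24 of 329 Zfp genes (7.29%) had a marked start, led by Zfp853 (1.99), Zfp872 (1.94) and Zfp423 (1.88).

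Signalling genes of development were marked to differing degrees by family. Starts inside regions numbered 14 of 15 for Wnt ligands, 14 of 16 for Fgf, 9 of 13 for Bmp and Gdf, 15 of 21 for ephrins and their receptors, 10 of 17 for semaphorins and 3 of 6 for Fzd receptors. Of all protein-coding genes, 23.0% had a marked start. The exact (Clopper-Pearson) 95% interval for Fzd receptors, 11.8 to 88.2%, includes that share, whereas those of the other families lie above it. Wnt1 and Wnt10b shared a region of 47.4 kb at 2.59 ± 0.15, and Wnt6 and Wnt4 had 2.24 and 2.19. Among the Fgf genes, Fgf9, Fgf18 and Fgf21 led with 1.89, 1.86 and 1.83. Gdf7, Bmp8a and Gdf11 had 2.28, 1.77 and 1.74, the ephrins Efna3 and Efna2 2.43 and 2.09, and their receptor Epha8 1.97. Sema6b, Sema4f and Sema6d had 2.03, 1.85 and 1.83, and the Wnt receptors Fzd10, Fzd9 and Fzd1 1.93, 1.88 and 1.79. Median enrichment over a family's regions was 1.91 for Wnt and 1.43 for Fgf, against 2.11 for the homeobox families.

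Genes of neuronal excitability formed another widely marked group. Starts inside regions numbered 52 of 67 for potassium channels, 15 of 20 for calcium channels, 12 of 15 for glutamate receptors, 10 of 11 for serotonin receptors, 4 of 5 for adrenergic receptors, 9 of 12 for Slc6 transporters and 7 of 15 for GABA receptors. Of all protein-coding genes, 23.0% had a marked start. The exact (Clopper-Pearson) 95% interval for GABA receptors, 21.3 to 73.4%, includes that share, whereas those of the other families lie above it. Kcna7, Kcnk4 and Kcnj4 led the potassium channels with 2.49, 2.37 and 2.31. The auxiliary calcium channel subunit Cacnb3 had 2.32 ± 0.14 and the pore subunits Cacna1b and Cacna1c 2.22 and 2.06. Grin2c, Grin1 and Gria2 had 2.44, 2.11 and 2.03, Htr1d, Htr6 and Htr3b 1.89, 1.86 and 1.68, and the serotonin transporter Slc6a4, with Slc6a3 and Slc6a5, 1.94, 1.68 and 1.62. Gabra4 and Gabrb1 shared a region at 1.85, ahead of Gabra2 at 1.46, and the adrenergic receptors Adra2c, Adra2a and Adra2b had 1.81, 1.74 and 1.54. Regions of potassium channel starts had a median length of 12.8 kb, shorter than the 34.6 kb of the homeobox families.

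Adhesion and structural families followed. Starts inside regions numbered 29 of 35 for keratins, 25 of 35 for collagens, 9 of 10 for Adamts proteases, 7 of 9 for delta protocadherins, 9 of 19 for claudins and 4 of 13 for cadherins. Of all protein-coding genes, 23.0% had a marked start. The exact (Clopper-Pearson) 95% interval for cadherins, 9.09 to 61.4%, includes that share, whereas those of the other families just counted lie above it. Of the clustered protocadherins, 35 of 57 genes were touched, and none has a start in the promoter table. Krt2 and Krt77 shared a region of 70.3 kb at 1.85, ahead of Krt24 at 1.69. Col8a2, Col16a1 and Col15a1 had 1.97, 1.96 and 1.86, and Adamts14, Adamts3 and Adamts20 had 2.13, 1.69 and 1.42. Pcdh17, Pcdh7 and Pcdh8 had 2.42, 2.07 and 1.98, and the tight junction genes Cldn6, Cldn3 and Cldn5 had 2.55, 1.84 and 1.77. Among cadherins with a start in that table, Cdh22, in a region of 240 kb, had 2.17, ahead of Cdh15 (1.74) and Cdh6 (1.44). Cdh1, without a start there, was covered over 70.9% of its length, with a highest enrichment of 2.67.

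Receptor genes of the nose had a marked start in a smaller share than all protein-coding genes. Of olfactory receptor genes, 94 of 940 (10.0%) had a marked start, against 23.0% of all protein-coding genes, and so had 8 of 205 Vmn1r and 3 of 116 Vmn2r genes, the pheromone receptors. Olfr1394, Olfr522 and Olfr225 had 1.77, 1.76 and 1.75, and Vmn1r1, Vmn1r233 and Vmn1r55 had 1.47, 1.42 and 1.38. Beta-defensins had a marked start in 11 of 29 genes (37.9%), led by Defb21, Defb45 and Defb47 with 1.48, 1.47 and 1.38. The exact (Clopper-Pearson) 95% interval of that share, 20.7 to 57.7%, includes 23.0%, so the 2 cannot be told apart. Median enrichment of olfactory receptor regions was 1.16, near the 1.11 of all regions.

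Genes of general cell function were almost free of the mark at their starts. No start was inside a region for 58 ribosomal protein genes and 41 Nduf genes of respiratory complex I, and 2 of 32 proteasome genes had one. These were Psma6 (1.07 ± 0.19) and Psmb11 (0.90 ± 0.22), a subunit used in the thymus. Among immune families, starts inside regions numbered 0 of 10 for Toll-like receptors, 0 of 4 for Siglec genes, 6 of 21 for chemokines and 11 of 24 for interleukin genes. Of all 6 Siglec genes, 2 were touched by a region. Exact (Clopper-Pearson) 95% intervals reach 30.8% for Toll-like receptors and 60.2% for Siglec genes, and run from 11.3 to 52.2% for chemokines. These shares cannot be told from the 23.0% of all protein-coding genes. The interval for interleukin genes, 25.6 to 67.2%, lies above 23.0%. Cxcl14, Cxcl12 and Cxcl2 had 1.98, 1.70 and 1.59, and Il11, Il31 and Il12a had 2.07, 1.75 and 1.72.

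**Figure D4:**
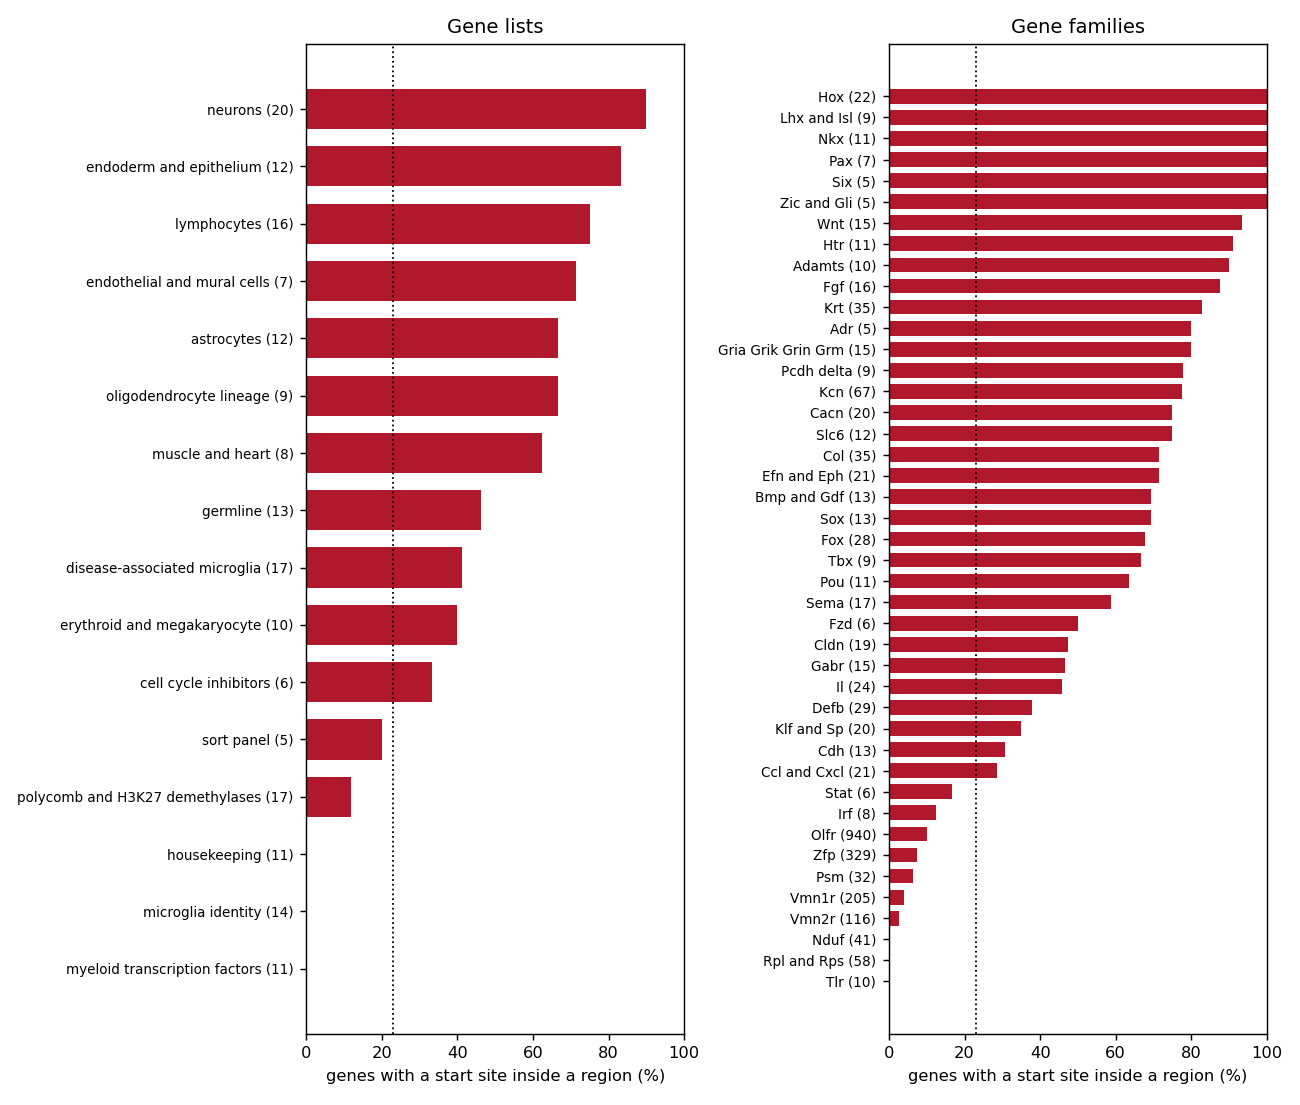
Share of genes (%) with a start site inside a region for each gene list (left) and each family (right) with at least 5 genes in the promoter table, with their number in parentheses. The dotted line marks the 23.0% of all protein-coding genes. Neurons lead the lists at 90.0%, and microglia identity, myeloid transcription factors and housekeeping genes stand at 0.

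Genes of microglial identity carried no region. None of the 20 genes listed was touched by a region, and 0 of the 14 with a start in the promoter table had it inside one. The same held for 0 of 15 myeloid transcription factors, Spi1, Irf8 and Runx1 among them, and for 0 of 15 housekeeping genes, against 31.9% of protein-coding genes touched. With 0 of 14 starts, the exact (Clopper-Pearson) 95% interval reaches 23.2%, so this share alone cannot be told from the 23.0% of all protein-coding genes. Regions assigned to identity genes were distant. The regions nearest to Sall1, the transcription factor of microglia, lay 614, 622 and 649 kb from its start with enrichments of 0.98, 0.77 and 0.83. The region assigned to Siglech was 170 kb away with 1.23. Those assigned to Olfml3 were 55.4 and 63.9 kb away with 1.43 and 0.76, and the one assigned to Sparc 37.6 kb away with 1.30.

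Among the surface proteins of the sorts, Ly9 (CD229), Itgax (CD11c), Cd44, Ptprc (CD45) and Itgam (CD11b) were touched by no region. Ace, the angiotensin-converting enzyme, was covered over 90.2% of its length by 2 regions. The one over its start, 41.2 kb long, had 11.24 in both H3K27me3 libraries, against 9.41 and 10.04 in input, an enrichment of 1.52 ± 0.21. The other had 1.28.

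Regulators and markers of neurons were marked in most cases. Of these, 23 of 24 genes were touched and 18 of 20 starts lay inside a region. Slc17a7, whose promoter is printed above, had 11.83 and 11.73 in H3K27me3, against 8.98 and 9.49 in input, an enrichment of 2.55 ± 0.19. The proneural factors Neurod2 and Neurog2 had 2.48 and 2.35. Of the neuronal list, Dcx, a microtubule protein of young neurons on the X chromosome, was the gene without a region.

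For lymphocytes, 16 of 20 genes were touched and 12 of 16 starts lay inside. Gata3, printed above, had 11.98 and 11.89 in H3K27me3, against 9.39 and 9.13 in input, an enrichment of 2.67 ± 0.15. Tbx21, the factor of type 1 helper T cells, had 2.38 ± 0.16 in a region of only 6.94 kb, and Ebf1, a factor of B cells, had 2.00. The oligodendrocyte lineage had 10 of 14 genes touched and 6 of 9 starts inside. Pdgfra, the receptor of precursors, had 2.27 ± 0.14, Nkx2-2 had 2.17 and Olig2 had 2.13 ± 0.18, with pair values of 2.43 and 1.84.

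By the regions over starts in the promoter table, astrocyte and vessel genes had lower median enrichment than neuronal and lymphocyte genes. This difference was not tested. For astrocytes, 11 of 14 genes were touched and 8 of 12 starts lay inside, with a median enrichment of 1.28 and leaders Fgfr3 (1.79), Aldoc (1.58) and Gja1 (1.54). For endothelial and mural cells, 10 of 14 genes were touched and 5 of 7 starts lay inside, with a median of 1.08. Flt1, a VEGF receptor, had 1.83 ± 0.16 and Cldn5 1.77, whereas Tie1 had 1.08. Median enrichment over the neuronal regions was 1.79 and over the lymphocyte regions 1.86. These medians are descriptions of short lists.

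Further lineages were marked in part. Of all protein-coding genes, 23.0% had a marked start. Exact (Clopper-Pearson) 95% intervals include that share for germline and pluripotency genes (19.2 to 74.9%) and for erythroid and megakaryocyte genes (12.2 to 73.8%). Those for endoderm and epithelium and for muscle and heart lie above it. Starts inside regions numbered 10 of 12 for endoderm and epithelium, led by Foxa3 (2.24) and by Pdx1 and Cdx2, which shared a region at 2.20. They numbered 5 of 8 for muscle and heart, led by Hand2 (2.15), Nkx2-5 (2.14) and Tbx20 (2.00). They numbered 6 of 13 for germline and pluripotency genes, led by Sox2, Pou5f1 and Nanos2 (1.98), and 4 of 10 for erythroid and megakaryocyte genes. Of these last, Gata2 had 2.22 and Gfi1b 1.40, against 0.94 for Epor and 0.78 ± 0.22 for Klf1, the red cell factor, whose pairs gave 1.16 and 0.41.

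Genes that microglia raise in disease had marks of modest size at some starts in these untreated animals. Of 20 such genes 8 were touched, against 31.9% of protein-coding genes. Of 17 starts, 7 (41.2%) lay inside a region, against 23.0% of all protein-coding genes. The exact (Clopper-Pearson) 95% interval of that 41.2% runs from 18.4 to 67.1%, so the share cannot be told from 23.0%. Dkk2, a Wnt antagonist, had 8.23 and 8.37 in H3K27me3, against 6.45 and 6.22 in input, an enrichment of 1.97 ± 0.18. Lgals3, which encodes galectin-3, had 7.97 and 7.98, against 5.77 and 6.78, an enrichment of 1.70 ± 0.31 in a region of 3.98 kb. Gpnmb, a lysosomal glycoprotein, had 1.68 ± 0.17. Apoe, the lipid carrier, had 8.11 and 8.43, against 6.74 and 7.94, an enrichment of 0.93 ± 0.35 whose pair values were 1.37 and 0.49. For Lgals3 and Apoe the second input stood more than 1 log2 unit above the first, so their enrichment is known less well than that of Dkk2. In the later replicates, density was 5.24 ± 0.36 at Lgals3, 4.66 ± 0.15 at Dkk2, 4.26 ± 0.19 at Gpnmb, 4.22 ± 0.24 at Apoe and 3.96 ± 0.41 at Etl4, above the medians of 3.06 to 3.22 over all regions. It was 2.96 ± 0.095 at Axl and 2.86 ± 0.56 at Ch25h, below those medians.

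By their share of marked starts, genes of the machinery of the mark could not be told from protein-coding genes in general. Of 20 Polycomb and demethylase genes 5 were touched (Phf19, Bmi1, Cbx2, Cbx7 and Cbx8), against 31.9% of protein-coding genes. Starts inside a region numbered 2 of 17, against 23.0% of all protein-coding genes. The exact (Clopper-Pearson) 95% interval of that share runs from 1.46 to 36.4%, which includes 23.0%. Cbx8, a chromobox reader, was covered over 62.1% of its length. The region over its start had 12.13 and 11.97 in H3K27me3, against 9.12 and 9.84 in input, an enrichment of 2.57 ± 0.23. A neighbouring region of 9.54 kb, also over part of Cbx2, had 2.24, and a further one at Cbx2 1.89. Phf19, a PRC2 accessory protein, had 1.27 ± 0.17 at its start. Bmi1 had 1.28 in an intron, and the 2 regions at Cbx7 had 1.08 and 1.02. Ezh2, the catalytic subunit, was not touched, and its nearest regions, 6.93 and 14.2 kb away, had 0.99 and 0.92. Those nearest to the accessory protein Jarid2 (5 regions, 0.89 to 1.38) and to the demethylase Kdm6b (3 regions, 0.92 to 1.51) also lay outside the genes.

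Cyclin-dependent kinase inhibitors included the textbook target of the mark. Cdkn2a, which encodes p16 and p19 and is known to be held silent by Polycomb in dividing cells, lay wholly in a region of 30.7 kb. It had 11.40 and 11.23 in H3K27me3, against 8.99 and 9.15 in input, an enrichment of 2.25 ± 0.15. Its neighbour Cdkn2b lay in a separate region of 9.81 kb at 1.17 ± 0.16. Density in replicates 3, 4 and 5 was 7.72, 5.29 and 5.64 at Cdkn2a, against 2.95, 3.17 and 2.54 at Cdkn2b. Cdkn1c, an imprinted inhibitor, was also covered whole, at 1.29.

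MicroRNA hairpins lay inside regions less often than protein-coding starts, in 154 of 1005 cases (15.3%), although their 128 regions had a median enrichment of 1.57. Those printed above lay in strong ones. Mir196b was in the Hoxa region at 2.80, Mir10a and Mir196a-1 in the Hoxb region at 2.50, Mir10b in the Hoxd region at 2.36 and Mir196a-2 in the Hoxc region at 2.26. These 5 genes, whose products carry the seeds of the first pairs printed, all lay within the Hox domains. Mir132 and Mir212, neuronal microRNAs that share a seed and a transcript, lay in 1 region of 12.3 kb at 2.61 ± 0.15. The sensory cluster of Mir182, Mir96 and Mir183 lay in 1 region of 25.5 kb at 2.34 ± 0.21, with pair values of 2.71 and 1.98. Mir9-1, of neural progenitors, lay in 45.2 kb at 2.24 ± 0.16. Members of 1 region share its value and do not count as separate measurements.

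Basal replicates 3 to 5 ordered the regions in a similar way as the enrichment in replicates 1 and 2. The regions were put in 10 equal classes by enrichment. Median density in replicates 3, 4 and 5 was 2.68, 2.94 and 2.82 in the lowest class and 4.44, 4.24 and 4.34 in the highest. Most of the climb came in the top classes, with a mean of 2.81 ± 0.13 in class 1, 2.99 ± 0.092 in class 5, 3.60 ± 0.012 in class 9 and 4.34 ± 0.10 in class 10 (SD, n = 3 libraries). Across regions the Spearman rho of enrichment with mean density was 0.52, as a description. It was 0.50, 0.44 and 0.51 with replicates 3, 4 and 5 alone. The classes also differed in length, with medians of 4.38 kb in the lowest and 15.9 kb in the highest. A start lay inside 4.98% of regions in the lowest class and 70.9% in the highest.

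**Figure D5:**
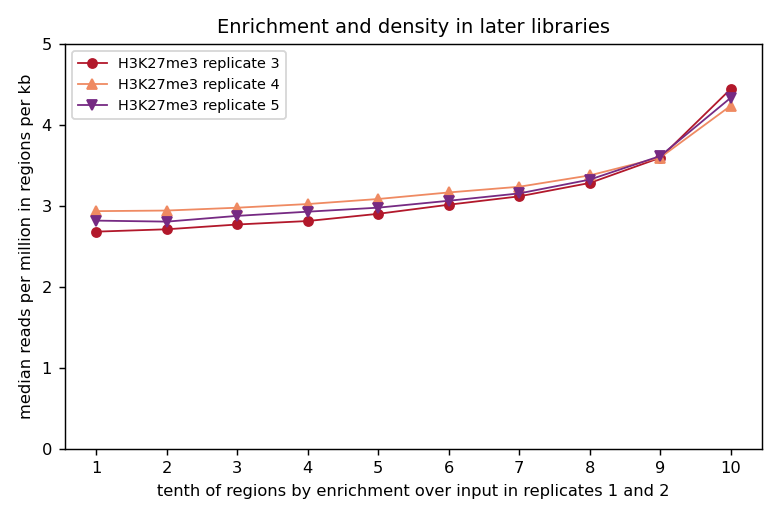
Median density (reads per 1000000 reads in regions, per kb) in basal H3K27me3 replicates 3, 4 and 5 (y axis) in 10 equal classes of the 26325 regions by enrichment over input in replicates 1 and 2 (x axis, low to high). The lines lie between 2.68 and 2.94 in the lowest class and between 4.24 and 4.44 in the highest.

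In some regions enrichment differed widely between the pairs. The largest differences between pairs were at Rai14, an actin-binding protein, with 1.82 and 0.18, at Kcnj9, a potassium channel, with 2.03 and 0.42, and at Slc38a5, an amino acid transporter, with 2.21 and 0.59. At Rai14 the H3K27me3 levels were 8.67 and 8.36, against 6.85 and 8.18 in input. At Kcnj9 they were 8.76 and 8.47, against 6.73 and 8.05, and at Slc38a5 7.58 and 7.06, against 5.37 and 6.47. The first input was the low one in all 3, and the second, with 4788629 tags, came close to the H3K27me3 level. Density in replicates 3 to 5 was 3.92 ± 0.21 at Rai14, 4.06 ± 0.37 at Kcnj9 and 2.78 ± 0.13 at Slc38a5 (SD, n = 3 libraries).

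The highest level of any region, chosen after values were seen, was not at a developmental gene. A region of 7.01 kb at Rn45s, the ribosomal RNA precursor, which is present in many copies of which the assembly holds few, had 16.02 and 16.15 in H3K27me3, against 13.16 and 13.73 in input. Its enrichment of 2.64 ± 0.19 was below that of Dlx1 and Dlx2. Its density was 496, 420 and 499.8 in replicates 3, 4 and 5, and the part of copy number in it was not tested.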

How the data were processed

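Sorted microglia were profiled by H3K27me3 ChIP-seq, with sequenced input DNA. HOMER, DESeq2, fastp 0.20.0, Bowtie2 2.3.4.1 and mm10 are named per the submitters' processing notes. Per the file headers, the authors called regions with HOMER's replicate caller on basal replicates 1 and 2 against 2 inputs (size 1250, L 0, F 2, adjusted p 0.05, log2 fold 1), scaled to library totals. The deposited per-sample columns hold log2 values, whose exact transform no header or label names. The deposited count table, raw tags per region, served for basal replicates 3 to 5, which held 9742268, 10230083 and 11175308 tags in the 26325 regions; 1 added region was left out. Other deposited values were positions, lengths and distances to start sites. The authors' test columns were not used.

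Enrichment was the mean of the H3K27me3 values minus the mean of the input values, tested in limma 3.58.1 (R 4.3.3) over all regions with trend and Benjamini-Hochberg adjustment, after a check on simulated data. An exact test of 2 against 2 libraries cannot give a p below 0.333, and any p-value reflects only how far these libraries vary, which may be technical. The inputs' labels tie each to the H3K27me3 replicate of its number, while per the file headers the first input also served a Pu.1 ChIP and the second an H3K27ac ChIP, so whether a pair came from the same cells is not known; deviations of same-numbered libraries from their group means correlated at 0.03 (Pearson, across regions). Density was tags in a region per 1000000 tags in all regions, per kb. Gene spans, start sites and sequences came from RefSeq (GRCm38.p6) with Python 3.11.15 and pandas 2.3.3; 40 gene symbols that a spreadsheet had turned into dates were restored by gene ID.

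The gene lists, families, tests and rules were chosen with earlier results of these data known. The naming rule took, with 1 region per gene and leaving out Gm and Rik names, the 10 longest regions, the 10 largest enrichments at 5 kb or more, the 5 largest under 5 kb, the 5 genes nearest to most regions (a tie added 1), the 3 leading members of each list and family with at least 5 marked genes, each member with a region of 3 lists (microglia identity, sort panel, Polycomb), and the 3 largest differences between pairs. Other genes named, mostly the sole marked members of a family, were chosen after their values were seen. A share of genes was planned as a region over the start or nearest to the gene; start inside alone was chosen after seeing the data. The promoter table is not complete. Genes without a start in it are left out of those shares and of the leading members of lists and families. Some regions that the rule names are not reported here.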

Additional observations from a re-analysis of the deposited data

How the results depend on the processing

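All 26325 regions stayed above input with the replicate block and without limma's trend, and 19740 of 19743 did after the 25% of regions with the lowest mean were removed. Without 1 library the count ran from 25346 to 26325. Median enrichment was 1.11. It ran from 1.08 to 1.16 without 1 library and was 1.32 when regions were weighted by length; the other 3 alternatives moved it by less than the spread between pairs. The share of regions with a start inside was 20.0%, with 19.2% for a start within 5 kb of the centre and 20.8% among regions of at least 2 kb. Regions with a start inside exceeded the others by 0.41, by 0.35 to 0.48 without 1 library, and by 0.26 with the 5 kb definition. The number of domains of at least 100 kb was 100, 347 and 579 with no joining and with joining over 5 and 10 kb, by construction. The rho of length with enrichment was 0.53 and ran from 0.34, without the first input, to 0.57 without the second. The rho with density was 0.52, and 0.44 with replicate 4 alone.

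The share of genes with a region, over the start or nearest, was 43.0% of protein-coding genes, 95.7% of the homeobox families and 28.6% of the microglia identity list. With the centre within 5 kb of the start it was 18.8%, 27.1% and 0%. With a start inside it was 23.0%, 94.3% and 0%. No result reversed. Why values moved was not tested. With 2 libraries per group, one input of 4788629 tags, and values compressed at low counts, single regions of small enrichment are known poorly. Regions too weak to be called were not analysed here.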
